A study of Mus musculus with 23 samples.

Results

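The eyelid of the mouse embryo was compared between its 2 tissue layers, the surface epithelium and the mesenchyme beneath it, at embryonic day 16.5 (E16.5). The members were the 6 arrays that the submitters' titles assign to eyelid epithelium (3 arrays) and to eyelid mesenchyme (3 arrays), of 23 arrays in all, chosen by title and not by any measured value. The other 17 arrays held separated epithelium and mesenchyme of the lacrimal and harderian glands at the same stage, and whole adult glands at 7 weeks. Both eyelid groups came from E16.5 embryos of the strain given as B6/CL, with no treatment and no transgene named, and the tissue was the lid together with its conjunctiva. The labels do not say how many embryos were pooled or that the arrays of a group came from separate litters. The p-values thus measure the spread between arrays of the same group, estimated over all 23 arrays, which may be technical.

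By this stage the lid margins of the mouse have grown across the eye and joined through their epithelium, and they part again only after birth. The epithelium is continuous with the epidermis outside and with the conjunctiva inside, and it stratifies into a basal layer that makes keratins 5 and 14 and a suprabasal layer that makes keratins 1 and 10 and then the cornified envelope. The mesenchyme, from neural crest and mesoderm, forms the dermis, the tarsal plate and the muscle that closes the lids, and it carries vessels, nerves and blood. Lid growth is known to depend on exchange between the layers, with FGF10 made by the mesenchyme and received by the FGFR2 receptor of the epithelium, and with EGF receptor ligands, activin, Wnt, BMP, Notch and hedgehog signals.

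A level below is log2 of a probe's signal relative to the 75th percentile of its own array, so 0 stands for that percentile and a difference of 1 for a 2-fold change. A gene was called where limma's moderated test gave a Benjamini-Hochberg adjusted p under 0.05 over all 16324 genes tested. Where no array of the dimmer layer stood well above background, the fold is given as a lower bound, set by the dimmest signal that was still measurable there. A gene well above background on some but not all arrays of the dimmer layer kept its plain difference. Its levels on the remaining arrays lay near background, so the size, error and rank of such a difference are less certain. Of the 16324 genes, 4189 (25.7%) were higher in epithelium and 4166 (25.5%) were lower. The counts of each list between the layers stand against these shares. The lists were drawn up with earlier results of these data known, so their counts are descriptions and test nothing. A gene entered if a probe stood well above background on each array of at least 1 of the 8 groups. It could enter through the layer where it was high, so list counts and medians describe the genes that passed. At least 8-fold differences were carried by 623 of the higher and 1062 of the lower genes. With each array scaled to its own 75th percentile, the median difference over all genes was 0.05. The size of a difference of dim genes depended on the background correction. With normexp, which models the background in place of the scanner's own correction, 67 of the 270 named genes that were called had a log2 difference over 1.5 times smaller, none changed sign and 2 were no longer called. The lower bounds hold for the scanner's correction. Levels of arrays of 1 layer correlated at 0.985 or more across genes, and arrays of different layers at 0.886 or less.

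The labels were borne out by the defining markers, and markers of each layer were also above background in the other. Cdh1, the cadherin that joins epithelial cells, stood at 4.09, 4.25 and 4.37 on the epithelial arrays, against 0.38, 0.21 and 1.39 on the mesenchymal arrays. The groups did not overlap, and mesenchymal replicate 3 was the highest of its group. Vim, the intermediate filament of mesenchymal cells, was at 4.10, 4.57 and 4.78 in epithelium and at 7.37, 7.32 and 7.42 in mesenchyme. Twist2, a mesenchymal transcription factor, was at -1.04, 1.49 and 0.77 in epithelium, where replicate 1 was lowest, and at 6.13, 5.96 and 5.79 in mesenchyme. Summed over 7 basal and simple keratins, the signal was 1581 to 1836 times the array's 75th percentile in epithelium and 149 to 358 in mesenchyme. Over 25 mesenchyme markers, the sum was 63.2 to 86.2 in epithelium and 553 to 589 in mesenchyme. These levels in the other layer were uneven between arrays. Mesenchymal replicate 3 held the highest mesenchymal level of 30 of the 34 junction genes described below, and epithelial replicate 1 held the lowest epithelial level of 19 of the 22 mesenchyme markers called lower. Without mesenchymal replicate 3, 3828 genes were called higher in epithelium and 3774 lower. Without epithelial replicate 1 these counts were 3766 and 3793. Their part in the results was not tested, and in these bulk samples fewer cells of a type and less RNA per cell cannot be told apart.

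**Figure D1:**
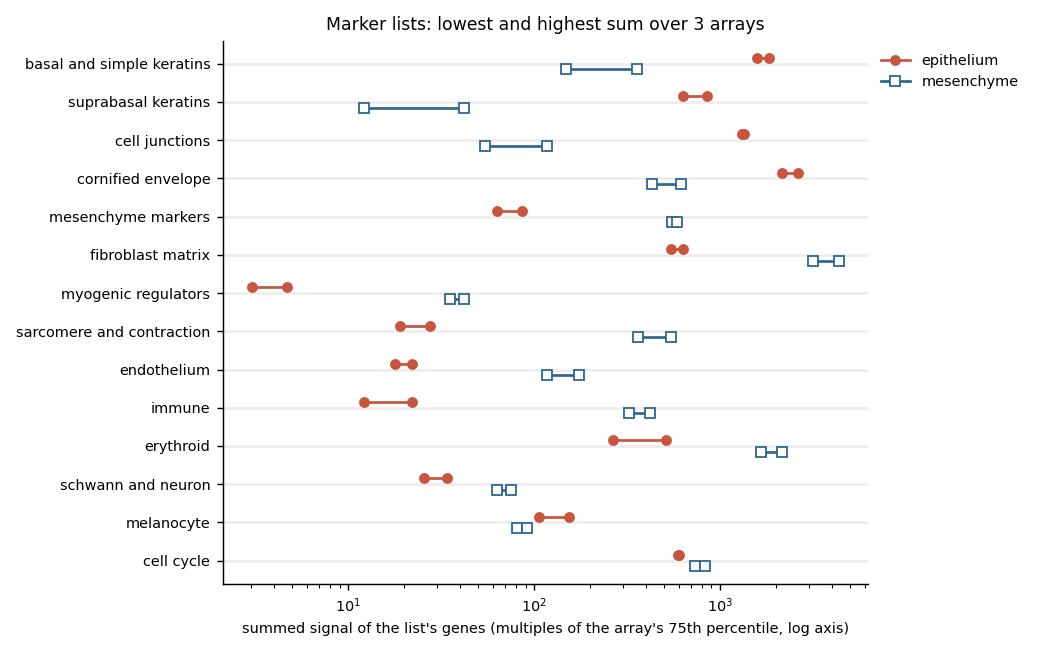
Summed signal of 14 marker lists (log axis, multiples of the array's 75th percentile), drawn as the lowest and highest sum over the 3 epithelial arrays (filled circles) and over the 3 mesenchymal arrays (open squares). Keratin, junction and cornified envelope genes sum higher in epithelium, the muscle, vessel, immune and erythroid lists sum higher in mesenchyme, and the melanocyte and cell cycle lists lie closest together.

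The 12 largest differences toward the epithelium were taken among genes called, well above background on every epithelial array and without overlap. They included barrier and defence genes of the stratified surface beside genes of other kinds. Among these, Orm2 and Orm1 encode acid glycoproteins of the acute phase, Sprr2d and Sprr3 small proline-rich proteins of the cornified envelope, Pla2g4f and Pla2g4e phospholipases, Lipk an epidermal lipase and Serpinb7 a protease inhibitor. Orm2 stood at 3.19, 3.53 and 3.66 in epithelium, against -2.35, -6.60 and -1.73 in mesenchyme, a difference of 7.02 ± 0.83 (SE; adjusted p = 1.07e-06). The spread lay in mesenchymal replicate 2, and without that array the difference of Orm2 was 5.50. Sprr3 was at 2.03, 2.38 and 2.34 in epithelium and at -4.62, -4.81 and -2.47 in mesenchyme, 6.22 ± 0.40 higher. Pla2g4f was at least 53.2-fold, Upk3b, a plaque protein of urothelium and mesothelium, at least 35.1-fold, and Rhox6, a homeobox gene of the X-linked reproductive cluster, at least 22.0-fold higher in epithelium. Gm94, Aox4 (an aldehyde oxidase) and Serpinb7 differed by 6.66, 6.22 and 6.29. As for Orm2, the difference of Gm94 was smaller without mesenchymal replicate 2, at 5.18.

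**Figure D2:**
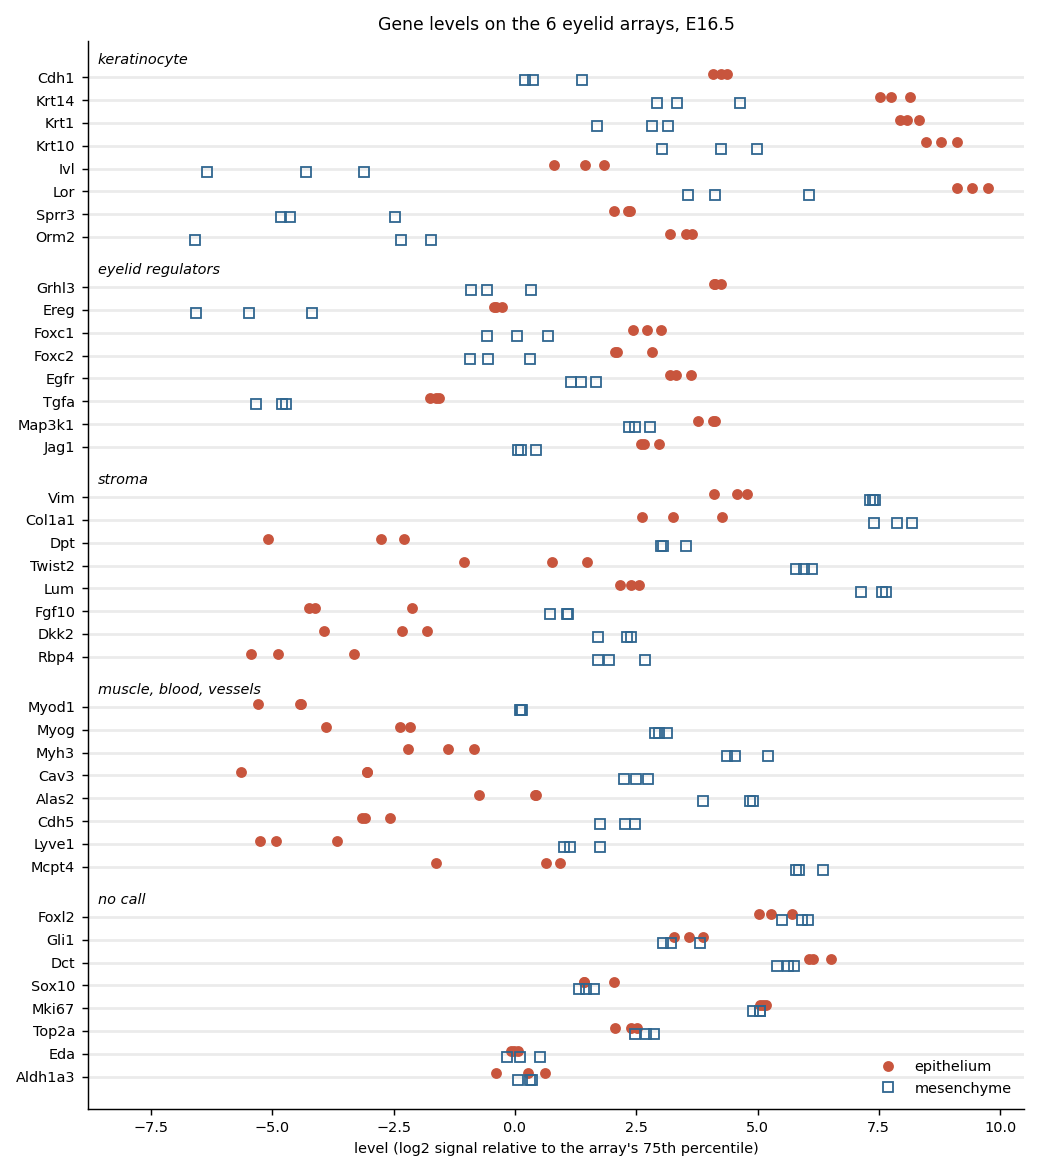
Levels of 40 genes on the 6 eyelid arrays (log2 signal relative to the array's 75th percentile), with a filled circle for each epithelial array and an open square for each mesenchymal array. The keratinocyte genes and the 8 eyelid regulators drawn lie to the right in epithelium, and the stromal, muscle and vessel genes lie to the right in mesenchyme. Fgf10 and Dkk2, which also act in the lid, are drawn among the stromal genes. The 8 genes at the bottom were not called. The regulators drawn are a selection, and of all 45 measured genes of eyelid closure 23 were higher and 10 lower in epithelium.

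Junction genes were uniform in direction. All 34 measured genes of desmosomes, tight junctions and gap junctions were higher in epithelium, with a median difference of 3.84, against 0.05 over all genes. Dsc1 and Dsg1a, desmosomal cadherins of the upper epidermis, were 6.11 and 5.67 higher, and Dsg3, the cadherin of the basal layers, was at least 21.7-fold higher. Cldn1 and Cldn4, which seal tight junctions, differed by 3.89 and 3.79, and Epcam by 2.99. Crb3, which sets apical polarity, was at -1.26, -1.26 and -0.79 in epithelium and at background in mesenchyme, at least 11.9-fold higher.

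The RefSeq promoter table (build GRCm38.p6) held windows of 300 bases, 250 before and 50 after a transcript's start, for 16 of the 34 junction genes. The E-box CACCTG, on either strand, lay in the windows of 13 of those 16 genes (81.2%), against 22.3% of the 12893 tested genes with a window. Counted by window, since a gene can have several, the shares were 81.0% of 21 and 19.5% of 16225. The related E-box CAGCTG lay in 1 of the 16 genes (6.25%), against 18.6% of the tested genes. Of the other 8 lists searched, CACCTG lay in 63.6% of hemidesmosome and laminin genes, 34.6% of envelope genes, 33.3% of epithelial transcription factors, 27.8% of sarcomere genes, 25.0% of barrier enzymes, 14.3% each of fibroblast matrix genes and myogenic regulators and 7.14% of mesenchyme markers. These shares describe letters in a window and were not tested. The windows below are those of the pair of junction genes with the largest differences that hold CACCTG, Crb3 at chr17:57061981-57062280 on the plus strand and Gjb6, a gap junction gene of keratinocytes 4.61 higher in epithelium, at chr14:57133562-57133861 on the minus strand. Capitals mark CACCTG or its complement CAGGTG, which start at -148, -93, -37 and -5 from the transcript start in Crb3 and at 14 in Gjb6, and also the match to AACCNGTT, the motif of grainyhead factors, at -244 in Gjb6.
Crb3: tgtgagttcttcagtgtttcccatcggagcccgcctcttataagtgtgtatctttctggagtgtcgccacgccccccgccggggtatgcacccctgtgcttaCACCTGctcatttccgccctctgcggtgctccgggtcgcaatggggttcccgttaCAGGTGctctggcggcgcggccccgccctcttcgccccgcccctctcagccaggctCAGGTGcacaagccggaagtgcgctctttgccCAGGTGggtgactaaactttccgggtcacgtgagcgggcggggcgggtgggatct
Gjb6: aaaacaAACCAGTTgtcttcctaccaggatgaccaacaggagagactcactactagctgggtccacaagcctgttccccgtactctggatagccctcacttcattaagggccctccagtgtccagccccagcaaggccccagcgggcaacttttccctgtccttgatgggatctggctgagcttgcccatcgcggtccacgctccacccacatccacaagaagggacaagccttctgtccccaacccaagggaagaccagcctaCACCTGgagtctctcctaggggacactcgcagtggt

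Keratins of the basal and of the suprabasal programme were mostly higher in epithelium, and the bulk samples do not separate these cells. Krt5 was at 9.52, 9.26 and 9.28 in epithelium, against 6.30, 6.03 and 7.27 in mesenchyme, 2.82 ± 0.50 higher (adjusted p = 0.000107), and another probe gave 3.85. Krt14, its partner in basal cells, was at 7.53, 7.76 and 8.14 in epithelium and at 2.93, 3.35 and 4.65 in mesenchyme. In both genes mesenchymal replicate 3 was the highest of its group, as for Cdh1. Krt1, the suprabasal keratin, was at 8.08, 8.33 and 7.93 in epithelium and at 3.15, 1.69 and 2.82 in mesenchyme, 5.56 ± 0.29 higher. Krt10, the partner of keratin 1, stood 4.69 higher, and Krt77 and Krt78, of the same layers, 6.16 and 6.12 higher. All 7 basal and simple keratins and 4 of 6 suprabasal keratins were higher (medians 2.96 and 5.13), and Krt2 and Krt80 were not called (-0.33 and 0.76). Krt8, Krt19 and Krt7 of simple and mucosal epithelium were 2.89, 3.61 and 4.82 higher, and Krt17 and Krt6a, of periderm and wounds, 2.99 and 4.5 higher. Krt4 and Krt13, the pair of mucosal epithelium, were 3.60 and 3.67 higher.

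The cornified envelope was represented by 53 listed genes, of which 48 had a probe and 29 passed the filter on dim probes. Of these 29, 25 were higher and none was lower in epithelium, with a median difference of 4.74. Since a gene could pass through epithelium alone, the median describes the genes that passed and not the whole list. Ivl, the involucrin scaffold, was at 1.43, 1.84 and 0.80 in epithelium, against -3.12, -6.34 and -4.30 in mesenchyme (5.95 ± 0.62, adjusted p = 1.99e-07). Lor, which makes up most of the envelope, was at 9.74, 9.43 and 9.10 in epithelium and at 6.06, 3.57 and 4.12 in mesenchyme. Lce1a1 was 5.96 higher, but 4.05 without mesenchymal replicate 3. Flg had no matched probe and is not analysed here. Barrier enzymes followed, with 27 of 31 measured genes higher and 1 lower (median 4.19). Tgm1, the transglutaminase that cross-links the envelope, Abca12, its lipid transporter, Spink5, an inhibitor of skin kallikreins, and Acer1, a ceramidase, were 5.16, 5.97, 6.01 and 5.86 higher, and Lipk at least 21.0-fold. Alox12b, a lipoxygenase of barrier lipids, was 3.08 higher by the probe used and 5.68 by another. Of 13 measured serpins of this family 10 were higher and 2 lower, led after Serpinb7 by Serpinb12 (5.71), Serpinb3a (5.60) and Serpinb2 (5.53), with Serpinb5 at 4.60. All 13 were well above background on every epithelial array and 9 on every mesenchymal array.

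Promoter windows were found for 26 of the 29 envelope genes. TATAAA lay on either strand in 10 of them (38.5%) and TGANTCA, the motif of AP-1 factors, in 11 (42.3%), against 10.8% and 6.90% of the tested genes with a window. TATAAA was also found in 30.6% of sarcomere genes and 28.6% of mesenchyme markers, and TGANTCA in 28.6% of myogenic regulators but in none of 24 barrier enzymes. The windows of Sprr2d and Sprr3, the envelope genes with the largest differences, are shown for these motifs, with no claim on what binds there. Sprr2d lies at chr3:92338890-92339189 on the plus strand and was at -0.36, 0.39 and -0.21 in epithelium and at background in mesenchyme, at least 25.1-fold higher. Capitals mark TGAGTCA at -193 and TATAAA at -29 from its start. Sprr3 lies at chr3:92458671-92458970 on the minus strand, with TATAAA at -33 and CAGCTG at -160 and -23 in capitals.
Sprr2d: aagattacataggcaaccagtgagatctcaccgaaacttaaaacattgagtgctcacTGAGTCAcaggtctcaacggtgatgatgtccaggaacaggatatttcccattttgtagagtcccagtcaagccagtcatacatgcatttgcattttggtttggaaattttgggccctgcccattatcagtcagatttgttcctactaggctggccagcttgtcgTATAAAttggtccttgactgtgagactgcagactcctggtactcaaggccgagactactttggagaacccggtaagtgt
Sprr3: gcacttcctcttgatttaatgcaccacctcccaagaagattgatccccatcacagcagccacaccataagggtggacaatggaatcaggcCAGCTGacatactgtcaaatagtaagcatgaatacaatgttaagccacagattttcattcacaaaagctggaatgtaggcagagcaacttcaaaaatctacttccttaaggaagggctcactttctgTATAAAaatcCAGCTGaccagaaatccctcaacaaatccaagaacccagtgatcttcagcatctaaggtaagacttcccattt

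Among 30 measured transcription factors of stratified epithelium, 23 were higher and 1 was lower (median 2.96). Foxn1, a regulator of keratinocyte differentiation, Ovol1, which limits proliferation of suprabasal cells, and Grhl1 were 5.21, 4.86 and 4.66 higher. Grhl3, a grainyhead factor whose loss leaves mouse eyelids open, was at 4.24, 4.13 and 4.10 in epithelium, against -0.58, -0.90 and 0.32 in mesenchyme (4.55 ± 0.70, adjusted p = 2.37e-05). Trp63, the master factor of stratified epithelium, depended on the probe. The brighter probe stood at 3.21, 2.40 and 2.42 in epithelium, against 2.64, 1.80 and 2.20 in mesenchyme (0.46 ± 0.26, adjusted p = 0.148), while another probe was 3.83 higher, and the mean of both was 2.15 higher and called. With the replicate block the brighter probe's 0.46 was called as well.

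Defence genes of surface epithelium were mostly higher too, at 18 of 26 measured with 6 lower (median 2.12, or 1.27 with normexp). Wfdc5, a protease inhibitor of skin, was at least 26.1-fold higher. Cxcl14, a chemokine that keratinocytes make at rest, was at 7.06, 7.28 and 7.07 in epithelium, against 5.34, 5.60 and 5.85 in mesenchyme. S100a8 and S100a9, alarmins of neutrophils and stressed keratinocytes, were lower in epithelium (-4.04 and -2.23).

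Markers of the ocular surface went both ways. Of 9 measured cornea markers 3 were higher and 3 lower in epithelium (median 0.34, or -0.02 with normexp), against 25.7% and 25.5% of all genes. Aldh1a1, an enzyme of corneal and retinoid metabolism, was lower (-1.52). Pax6, the eye field factor that conjunctiva and cornea keep, was at 1.09, 0.93 and 1.54 in epithelium, against -2.44, -2.34 and -1.02 in mesenchyme, 3.12 higher by the brighter probe and 1.26 by another. Barx2, a homeobox gene of lid and gland epithelium, was at 1.2, 3.41 and 1.09 in epithelium and at 0.13, 0.17 and 0.12 in mesenchyme, 1.76 higher in all and 1.01 higher without epithelial replicate 2. Krt12, the keratin of corneal epithelium, was at -2.40, -2.56 and -2.91 in epithelium and at background in mesenchyme, at least 4.23-fold higher. Of 21 measured genes of conjunctiva and mucins 13 were higher and 4 lower, with a median of 2.10. Upk1b and Psca, surface proteins of mucosal epithelium, were 5.05 and 5.46 higher, and Muc15 at least 8.89-fold. Muc1, a membrane mucin, was at -4.42, -4.43 and -3.81 in epithelium and was well above background on no mesenchymal array, and its call was lost with normexp. Muc5ac, the secreted mucin of goblet cells, was at -3.40, -2.74 and -3.84 in epithelium and at -3.53, -3.33 and -3.85 in mesenchyme, and the layers overlapped (adjusted p = 0.84). Kera, the keratan sulphate proteoglycan of the corneal stroma, was lower in epithelium (-5.59), and Cryaa, a lens crystallin, was at 0.79, 1.32 and 1.2 in epithelium, against -3.74, -3.51 and -3.32 in mesenchyme. Only Cryaa rose among the 7 measured lens and retina genes, of which Bfsp1 fell by 1.27 and the other 5 were not called.

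At the interface of the layers, the epithelial anchor and the stromal basement membrane parted. Of 17 measured genes of the hemidesmosome and its laminin, 15 were higher and 1 was lower in epithelium (median 3.05). Col17a1, the collagen that spans the hemidesmosome, was at 4.08, 4.41 and 4.41 in epithelium, against 0.19, -0.42 and 1.09 in mesenchyme. Lamb3, a chain of the anchoring laminin, was 3.50 higher, Itgb4, its integrin, 3.28, and Fermt1, which activates integrins, 3.99. Of 12 stromal basement membrane genes 7 were lower and 1 higher (median -2.40), among them Lama2 (-3.37), Lama4 (-4.16), Nid2 (-4.20) and Col4a1 (-2.40), and Col15a1 was at least 4.09-fold lower in epithelium.

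Genes whose loss is known to leave mouse eyelids open at birth, or that act in closure, split between the layers. Of 45 measured, 23 were higher and 10 lower in epithelium, with a median of 0.66, against 25.7% higher and 25.5% lower over all genes. Of 13 measured genes of the EGF receptor system 12 were higher in epithelium (median 2.14, or 1.27 with normexp). All 13 were well above background on every epithelial array and 7 on every mesenchymal array, so a gene could pass the filter through epithelium alone. Egfr was at 3.19, 3.31 and 3.64 in epithelium, against 1.35, 1.16 and 1.68 in mesenchyme (1.98 ± 0.19, adjusted p = 6.17e-08). Its ligand Tgfa was at -1.75, -1.63 and -1.57 in epithelium and at background in mesenchyme, at least 8.33-fold higher. Ereg was at -0.26, -0.40 and -0.43 in epithelium and at -5.48, -6.58 and -4.19 in mesenchyme, and the ligands Areg and Btc were 2.95 and 3.23 higher. Hbegf rested on epithelial replicate 3, at 1.96 beside 0.50 and 0.33 on the other epithelial arrays, against -0.07, -0.16 and 0.32 in mesenchyme. Its difference of 0.90 was 0.38 and not called without that array. Nrg1, the ligand of ERBB receptors made by stroma, was the lone gene of the list lower in epithelium (-2.19, -1.43 and -1.1, against 0.40, 1.33 and 1.28 in mesenchyme). Map3k1, the kinase that drives the closing epithelium, was at 4.12, 3.77 and 4.09 in epithelium and at 2.79, 2.35 and 2.47 in mesenchyme, 1.45 higher. Inhba, the activin subunit, ran the other way, at -0.49, -0.34 and 0.16 in epithelium and at 1.54, 1.64 and 1.5 in mesenchyme (-1.78 ± 0.47, adjusted p = 0.00355), with its inhibitor Fst 1.05 higher in epithelium. The call of Fst ended without any of epithelial replicates 1, 2 and 3 or mesenchymal replicates 1 and 2, with values of 0.86 to 1.11.

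FGF ligands and receptors were found on both sides, with 6 of 17 measured genes higher and 8 lower in epithelium (median -0.125). Fgf10 was at -2.13, -4.12 and -4.24 in epithelium, against 0.71, 1.1 and 1.07 in mesenchyme (-4.46 ± 0.70, adjusted p = 3.06e-05), and Fgf7, the other ligand of the epithelial receptor, was at -3.28, -3.21 and -3.69 in epithelium and at 0.75, 0.65 and 0.55 in mesenchyme. Their receptor Fgfr2 was at 1.15, 1.26 and 1.28 in epithelium and at 0.04, 0.11 and 0.10 in mesenchyme, 1.15 ± 0.11 higher, and another probe gave 1.63. Fgfr1 and Fgfr4, receptors of mesenchyme and muscle, were lower in epithelium (-2.37 and -4.70), and other probes gave -2.57 to -0.60 for Fgfr1 and -2.64 for Fgfr4. Fgfbp1, which releases FGFs from the matrix, was 4.38 higher. Fgf20, a ligand of placodes, was at -0.55, -0.23 and -0.62 in epithelium by the probe used, which no mesenchymal array held well above background. Of 16 measured genes that FGF signalling is known to induce, 4 were higher and 6 lower (median 0.15), against 25.7% and 25.5% of all genes. Etv4, Etv5 and Dusp6 were not called (0.10, -0.46 and 0.20). Etv5 was called with the eyelid arrays alone, with the replicate block (adjusted p = 0.0144) and without it (adjusted p = 0.0281), and with quantile normalization (adjusted p = 0.0395).

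**Figure D3:**
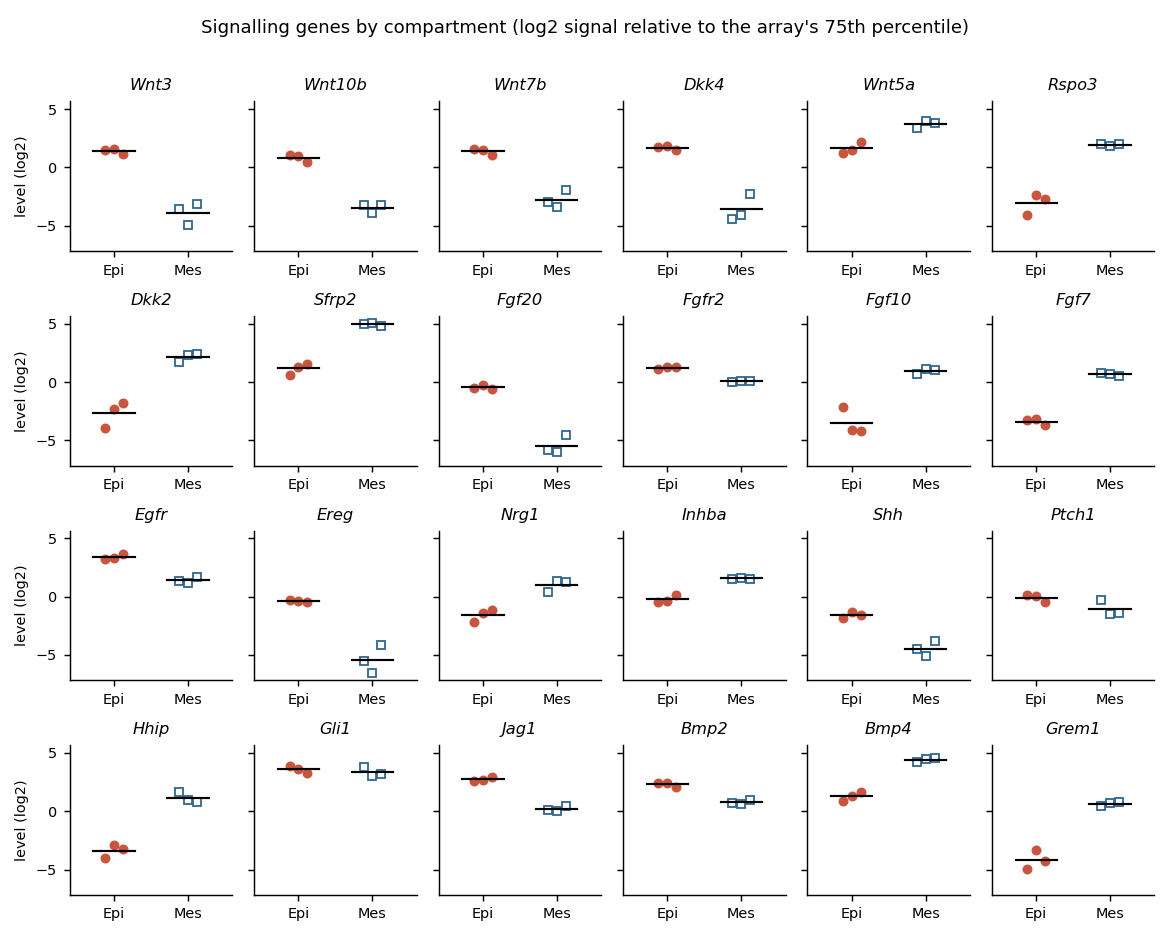
Levels of 24 signalling genes on the epithelial arrays (Epi, filled circles) and the mesenchymal arrays (Mes, open squares), with the mean of each group as a bar (log2 signal relative to the array's 75th percentile). Wnt3, Wnt10b, Wnt7b, Dkk4, Fgf20, Ereg, Shh and Jag1 stand higher in epithelium, Rspo3, Dkk2, Sfrp2, Fgf10, Fgf7, Hhip, Bmp4 and Grem1 stand higher in mesenchyme, and the groups overlap for Ptch1 and Gli1.

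The Wnt pathway was divided by role. Of 17 measured ligands and secretion genes, 10 were higher and 5 lower in epithelium (median 1.64, or 2.66 over the probes well above background in an eyelid group). Wnt3 was at 1.51, 1.61 and 1.16 in epithelium, against -3.61, -4.94 and -3.13 in mesenchyme (5.32 ± 0.35, adjusted p = 8.06e-10). Wnt10b, Wnt7b, Wnt6 and Wnt4 were 4.26, 4.16, 3.15 and 3.09 higher. Wnt5a, the ligand of planar polarity, was at 1.24, 1.47 and 2.20 in epithelium and at 3.39, 3.95 and 3.84 in mesenchyme. Of 16 measured secreted modulators 11 were lower and 5 higher (median -3.82, or -2.32 with normexp). Rspo3, which amplifies Wnt signals, was at -4.11, -2.33 and -2.68 in epithelium, against 2.02, 1.84 and 2.02 in mesenchyme. Dkk2, an inhibitor whose loss leaves the lids open, was at -3.93, -2.32 and -1.81 in epithelium and at 1.72, 2.32 and 2.40 in mesenchyme, and Sfrp2 and Sfrp4 were lower as well (-3.81 and -5.94). Dkk1 was at -6.03, -2.51 and -1.22 in epithelium and at 1.65, 1.85 and 1.92 in mesenchyme, and its difference of -5.06 was -3.67 without epithelial replicate 1. Dkk4, the inhibitor made in placodes, was the opposite, 5.30 higher in epithelium. Of 14 Wnt targets 5 were higher and 6 lower (median -0.05), against 25.7% and 25.5% of all genes. Rnf43 and Znrf3, ligases that damp the pathway, were 3.57 and 2.68 higher, Lef1, the nuclear effector, 1.75 higher, and Nkd1 was lower (-3.53). Axin2, the common reporter of the pathway, was at -0.37, -1.17 and -0.95 in epithelium, against -1.58, -1.88 and -1.82 in mesenchyme (0.93 ± 0.37, adjusted p = 0.0449). That call was lost without each of the 3 epithelial and 3 mesenchymal arrays in turn, except epithelial replicate 2, with values from 0.70 to 1.02.

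BMP ligands and inhibitors lay mostly in mesenchyme, with 17 of 27 lower and 5 higher in epithelium (median -1.34, or -0.73 with normexp). Bmp4 was at 0.89, 1.27 and 1.66 in epithelium, against 4.20, 4.45 and 4.59 in mesenchyme, and the antagonists Grem1 and Bmper and the ligand Gdf10 were lower in epithelium (-4.84, -4.29 and -5.0). Bmp2 ran the other way, at 2.41, 2.44 and 2.12 in epithelium and at 0.68, 0.67 and 0.95 in mesenchyme. Of 10 measured BMP response genes 7 were not called, Id1 and Smad6 among them (0.55 and 0.00), though Id1 was called with the replicate block over the eyelid arrays alone (adjusted p = 0.0298), while Msx2 was 1.66 higher and Id2 was lower (-1.87). Of 14 hedgehog pathway genes 4 were higher and 4 lower, against 25.7% and 25.5% of all genes. Shh, the hedgehog ligand, was at -1.83, -1.36 and -1.6 in epithelium, against -4.50, -5.10 and -3.83 in mesenchyme (2.88 ± 0.28, adjusted p = 8.23e-08). Hhip, a ligand trap that the pathway induces, was lower (-4.53). Gli1, the target read most often, was at 3.88, 3.59 and 3.29 in epithelium and at 3.81, 3.06 and 3.21 in mesenchyme, and the layers overlapped (adjusted p = 0.643). Ptch1 was 0.98 higher (adjusted p = 0.0187), a call lost without epithelial replicate 1 or 2 or mesenchymal replicate 2 or 3 (0.77 to 0.92). Of 16 Notch pathway genes 7 were higher and 8 lower. The ligand Jag1 was at 2.60, 2.67 and 2.97 in epithelium, against 0.12, 0.07 and 0.43 in mesenchyme, and Jag2 was 2.71 higher, while the vessel and pericyte genes Heyl, Hey2 and Hey1 were lower (-4.38, -3.31 and -2.77). Notch1, the receptor, differed by -1.96 with the brighter probe and by 1.24 with another, and the mean of the probes was not called (-0.36).

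Of 17 measured retinoid genes 5 were higher and 8 lower in epithelium (median -0.36). Sdr16c5, which oxidises retinol, was at 0.58, 0.86 and 0.63 in epithelium and at background in mesenchyme, at least 41.6-fold higher. Rbp4, the retinol carrier, had the lowest difference among genes called, well above background on every mesenchymal array and without overlap. It was at -5.45, -3.31 and -4.88 in epithelium, against 2.68, 1.72 and 1.94 in mesenchyme (-6.66 ± 0.55, adjusted p = 1.32e-08). Crabp1, which binds retinoic acid in the cell, Stra6, the receptor of the carrier, Aldh1a2, which makes the acid, and Cyp26b1, which degrades it, were lower in epithelium (-5.64, -2.98, -2.23 and -2.01). Aldh1a3, another enzyme of synthesis, was at 0.27, -0.40 and 0.62 in epithelium and at 0.36, 0.06 and 0.32 in mesenchyme and was not called.

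Genes of skin appendages and of lid gland lipids were measured as well. Of 29 measured genes of the ectodysplasin pathway and placodes, 20 were higher and 4 lower in epithelium (median 1.63). Edar, the ectodysplasin receptor, was at -1.77, -1.98 and -2.15 in epithelium and at background in mesenchyme, at least 6.50-fold higher. Its ligand Eda was at 0.07, -0.09 and -0.02 in epithelium, against 0.51, -0.17 and 0.10 in mesenchyme, and was not called, though another probe gave 1.02. Of 26 genes of meibum and sebum lipids 12 were higher and 6 lower (median 0.54, or 0.17 with normexp and 0.35 without epithelial replicate 2). Dgat2, which makes triglycerides, was at 6.52, 6.89 and 6.51 in epithelium and at 2.47, 2.46 and 2.82 in mesenchyme, and Elovl7 and Elovl1, which lengthen fatty acids, were 3.73 and 2.98 higher. Pparg and Scd1, of sebocytes and fat cells alike, were lower in epithelium (-1.72 and -1.86).

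The mesenchyme carried a fibroblast matrix that was nearly uniform in direction. Of 44 measured matrix genes 39 were lower and 1 higher in epithelium, with a median of -3.87. Col1a1, the main fibrillar collagen, was at 2.61, 3.26 and 4.28 in epithelium, against 8.18, 7.41 and 7.87 in mesenchyme (-4.43 ± 0.35, adjusted p = 8.02e-09). Dpt, which organises collagen fibrils, was at -5.08, -2.76 and -2.29 in epithelium and at 3.53, 3.01 and 3.05 in mesenchyme, and Aspn, a small proteoglycan, was also lower (-6.44). Lum, Eln and Col6a3 differed by -5.09, -4.71 and -5.52. Of 25 mesenchyme markers 22 were lower (median -4.65), among them Prrx1 (-5.02), Meox2 (-5.68), Tbx18 (-5.65) and Pdgfra (-4.65), and 2 were higher. Growth factors and chemokines of stroma were mostly lower in epithelium, at 20 of 29 with 4 higher, including Igf1 (-4.53, with other probes from -4.36 to -2.99), Cxcl12 (-4.43), Igfbp6 (-4.46), Ccl11 (at least 18.3-fold) and Ccl7 (at least 15.3-fold). Agouti (symbol a), the signal by which dermis turns hair pigment yellow, was at -5.92, -3.08 and -3.27 in epithelium, against 2.26, 1.83 and 2.32 in mesenchyme. Tac1, which encodes substance P, was at least 39.6-fold lower in epithelium. Of 20 matrix proteases and inhibitors 16 were lower and 1 higher (median -2.17, or -1.01 with normexp), with Adamts2, the collagen peptidase, at -4.64.

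Transcription factors of the mesenchyme around the eye did not all lie in the mesenchyme. Of 39 measured, 23 were lower and 8 higher in epithelium (median -1.91, or -0.69 with normexp). Lhx8 and Mkx were at least 38.4-fold and 16.5-fold lower in epithelium, and Foxd1 at least 9.52-fold. Foxc1 and Foxc2, forkhead genes best known from periocular mesenchyme, were higher in the epithelium. Foxc1 was at 2.72, 2.44 and 3.0 in epithelium, against 0.04, -0.58 and 0.68 in mesenchyme (2.67 ± 0.32, adjusted p = 1e-06), and Foxc2 was at 2.10, 2.07 and 2.82 in epithelium and at -0.55, -0.93 and 0.31 in mesenchyme. In both genes mesenchymal replicate 3 was again highest. Six2 was 2.05 higher. Foxl2, whose human mutations cause narrow lids, was at 5.72, 5.28 and 5.04 in epithelium and at 5.91, 5.50 and 6.04 in mesenchyme, and the groups overlapped (-0.47 ± 0.27, adjusted p = 0.162). Osr2, whose loss also leaves mouse eyelids open, was lower in epithelium (-0.72).

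Genes of forming skeletal muscle were mostly lower in epithelium. Of 14 measured myogenic regulators 12 were lower and 1 higher in epithelium (median -3.52, or -1.85 with normexp), and of 45 genes of the sarcomere 35 were lower and none higher (median -3.87, or -2.36 with normexp). All 14 regulators and 41 sarcomere genes were well above background on every mesenchymal array, but 9 and 25 on every epithelial array. A gene could thus pass the filter through mesenchyme alone. Myod1, which commits cells to muscle, was at background in epithelium and at 0.12, 0.14 and 0.11 in mesenchyme, at least 25.1-fold lower in epithelium. Myog, which starts fusion, was at -3.89, -2.16 and -2.38 in epithelium, against 2.96, 2.89 and 3.13 in mesenchyme. Myh3, the embryonic myosin, was at -2.19, -0.85 and -1.39 in epithelium and at 5.22, 4.54 and 4.37 in mesenchyme (-6.19 ± 1.0, adjusted p = 4.16e-05). Pax7, of muscle progenitors, was at least 7.08-fold and Msc, a repressor in facial muscle, at least 29.1-fold lower in epithelium, and Mymx, the fusion peptide, was lower as well (-5.81). Sln, Tnnt3 and Cav3, of contraction and its membrane, were among the 12 lowest of the genes ranked as for Rbp4 (-6.29, -6.21 and -6.41). The summed sarcomere signal was 18.9 to 27.5 in epithelium and 361 to 545 in mesenchyme. Promoter windows were found for 36 of the 45 sarcomere genes, and the E-box CAGCTG lay in 20 of them (55.6%), against 18.6% of the tested genes. It lay in 14.3% of myogenic regulators, 40.0% of epithelial transcription factors and 35.7% of fibroblast matrix genes. The pair with the largest differences that hold it is shown, Cav3 at chr6:112459255-112459554 on the plus strand with CAGCTG at -106 from the start, and Myl1 at chr1:66945007-66945306 on the minus strand with CAGCTG at -224 and TTTATA, the complement of TATAAA, at -95. Cav3 was at -5.65, -3.05 and -3.06 in epithelium and at 2.73, 2.25 and 2.49 in mesenchyme, and Myl1, an embryonic and fast myosin light chain, at -2.45, -0.88 and -1.5 in epithelium and at 5.50, 4.03 and 4.41 in mesenchyme. Replicate 1 held the lowest epithelial and the highest mesenchymal level of both genes.
Cav3: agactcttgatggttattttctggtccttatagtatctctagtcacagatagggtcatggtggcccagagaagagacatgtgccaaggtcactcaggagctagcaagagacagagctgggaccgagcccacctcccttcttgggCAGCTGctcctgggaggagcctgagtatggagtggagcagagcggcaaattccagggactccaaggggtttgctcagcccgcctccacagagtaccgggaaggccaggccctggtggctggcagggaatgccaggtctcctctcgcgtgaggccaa
Myl1: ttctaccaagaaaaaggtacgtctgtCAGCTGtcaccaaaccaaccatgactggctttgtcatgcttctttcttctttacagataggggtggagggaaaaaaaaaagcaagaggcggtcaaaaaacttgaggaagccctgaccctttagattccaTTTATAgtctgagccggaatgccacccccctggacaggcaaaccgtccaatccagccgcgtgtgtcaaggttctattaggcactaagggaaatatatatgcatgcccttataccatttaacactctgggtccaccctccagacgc

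Vessels, blood, immune cells and nerve were also on the mesenchymal side. Of 19 endothelial genes 18 were lower in epithelium (median -4.51). All 19 were well above background on every mesenchymal array and 13 on every epithelial array. Cdh5, the endothelial cadherin, was at -3.10, -2.58 and -3.15 in epithelium, against 2.48, 2.26 and 1.76 in mesenchyme, and Lyve1, of lymphatic vessels and macrophages, was lower (-5.91). Of 19 immune genes 18 were lower (median -3.78), led by the mast cell genes Mcpt4, Cpa3 and Cma1 (-6.02, -5.97 and -5.90), and Clec10a, a macrophage lectin, was at least 18.1-fold lower in epithelium. Of 12 erythroid genes 9 were lower and 1 higher (median -2.91), and the erythroid sum was 267 to 515 in epithelium and 1653 to 2168 in mesenchyme. Alas2, of haem synthesis, was at -0.74, 0.41 and 0.43 in epithelium and at 3.87, 4.91 and 4.84 in mesenchyme. Of 18 genes of Schwann cells and neurons 12 were lower and 1 higher (median -2.05, or -0.84 with normexp), with Ngfr at -4.66 and Gap43 at -4.95, whereas Sox10, which melanocytes, Schwann cells and gland buds share, was not called (0.15). Cartilage and bone genes were lower at 16 of 22, with 3 higher (median -2.09, or -0.96 with normexp). Col2a1 was lower (-2.53), Spp1 was at least 8.77-fold lower in epithelium, while Ibsp, a bone sialoprotein, differed by -4.89 with the probe used and by -7.25 with another. Bglap2 and Runx2, of the same list, were 4.26 and 1.63 higher in epithelium.

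Cell cycle genes were mostly not called, and the calls of pigment genes depended on the fit. Of 11 measured melanocyte genes 1 was higher, 1 lower and 9 were not called (median 0.28). With the eyelid arrays alone 4 were higher and 1 lower, and with the replicate block over those arrays 5 and 1. Dct, the melanoblast enzyme, was at 6.14, 6.07 and 6.51 in epithelium, against 5.62, 5.39 and 5.76 in mesenchyme, a difference of 0.65 ± 0.42 (adjusted p = 0.209) although the groups did not overlap. Dct was called with the eyelid arrays alone (adjusted p = 0.02) and with the replicate block over them (adjusted p = 0.00702). Tyrp1, of the same pathway, was at 1.87, 1.76 and 2.20 in epithelium and at 2.59, 2.09 and 1.87 in mesenchyme. Of 33 cell cycle genes 2 were higher and 7 lower (median -0.14). Mki67, of dividing cells, was at 5.05, 5.18 and 5.12 in epithelium and at 5.04, 5.06 and 4.91 in mesenchyme (0.11 ± 0.15, adjusted p = 0.578). Cdkn1a, the inhibitor that marks cells leaving the cycle, was at 3.79, 4.07 and 4.0 in epithelium and at 2.05, 1.73 and 1.92 in mesenchyme, and Cdkn1c, another inhibitor, was lower (-1.36).

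**Figure D4:**
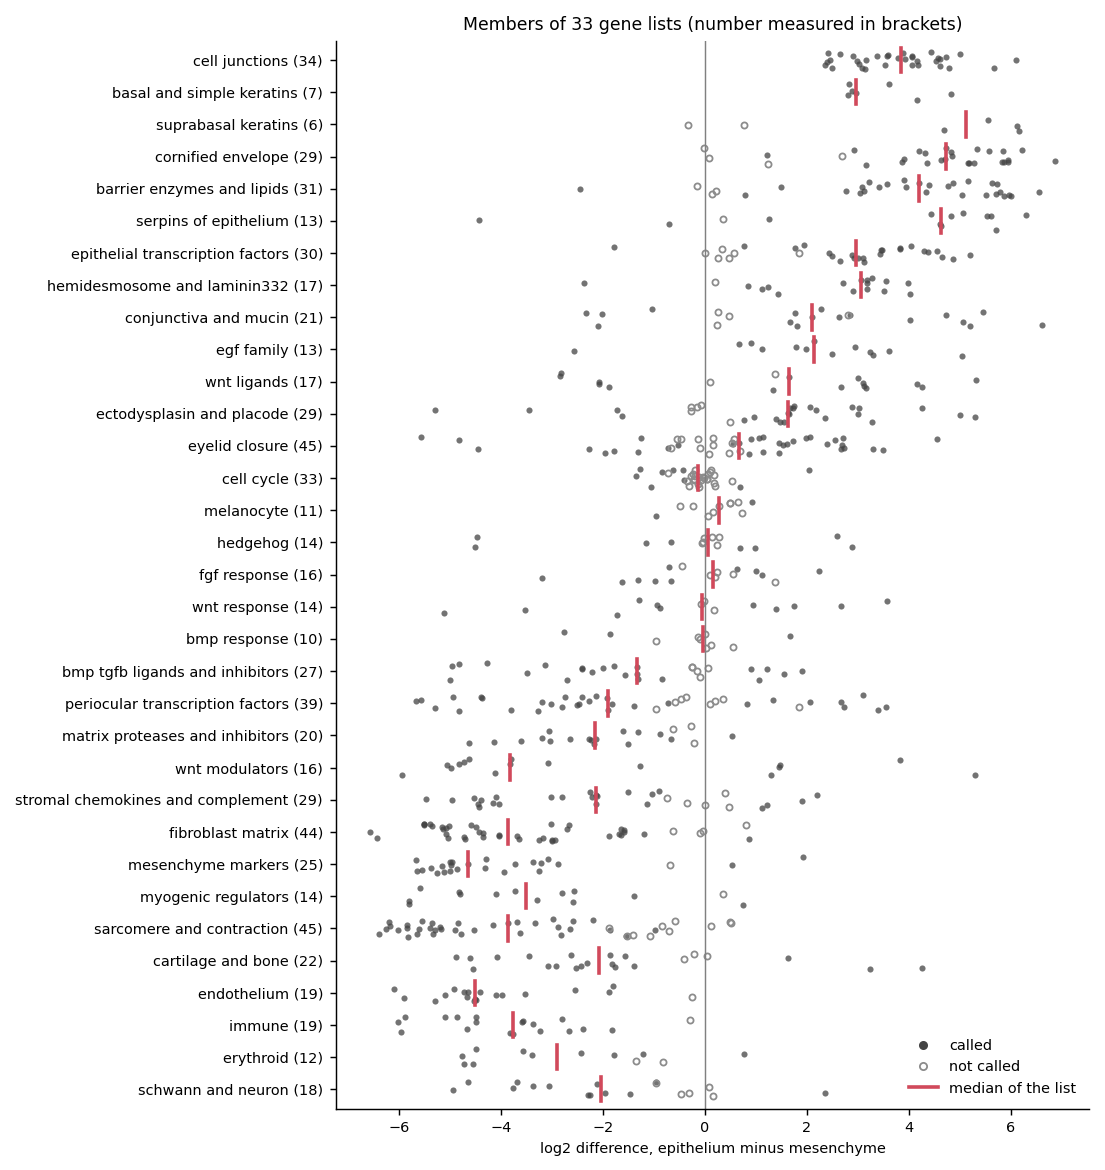
Log2 difference (epithelium minus mesenchyme) of every measured member of 33 gene lists, filled where called and open where not, with the median of each list as a bar. The 34 junction genes all lie right of 0 (median 3.84), the endothelial list has a median of -4.51, and the cell cycle list clusters at -0.14.

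The epithelium-to-mesenchyme difference of the eyelid was then set against the mean of that difference in the lacrimal and harderian glands, in the same fit. It was higher in the eyelid for 3047 genes (18.7%) and lower for 3741 genes (22.9%). Of the 29 measured envelope genes 24 had a higher difference in the eyelid and none a lower one (median 4.74). All 29 were well above background on every eyelid epithelial array and 17 on every eyelid mesenchymal array. A gene could thus pass the filter through eyelid epithelium alone, which favours a higher difference in the eyelid, and the count describes only the genes that passed. Krt1 differed by 5.56 in the eyelid, against 0.62 in the lacrimal and -2.17 in the harderian gland. Egfr differed by 1.98 in the eyelid, against -0.91 and -0.43 in the glands (difference 2.65 ± 0.23, adjusted p = 5.5e-08). Krt14 was 4.17 higher in eyelid epithelium, against 4.99 and 4.62 in the glands, and was not called in this comparison (adjusted p = 0.38). Cdh1 differed by 3.58 in the eyelid, against 5.46 and 5.14 in the glands, a smaller difference in the eyelid (-1.72 ± 0.54, adjusted p = 0.016). FGF response genes were lower in the eyelid comparison at 11 of 16, with 1 higher (median -2.19). Etv4 differed by 0.10 in the eyelid, against 2.70 and 4.57 in the lacrimal and harderian glands, while Fgf10 differed by -4.46 in the eyelid, against -5.79 and -6.73 in the glands (adjusted p = 0.10). Cell cycle genes were lower at 26 of 33 (median -1.16), with Mki67 at 0.11 in the eyelid, against 0.86 and 1.55 in the glands. Melanocyte genes were higher at 9 of 11, with Dct at 0.65 in the eyelid, against -4.99 and -5.60 in the glands. Gli1 differed by 0.23 in the eyelid, against -4.33 and -3.22 in the glands, and Sox10 by 0.15, against 5.18 and 3.84.

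**Figure D5:**
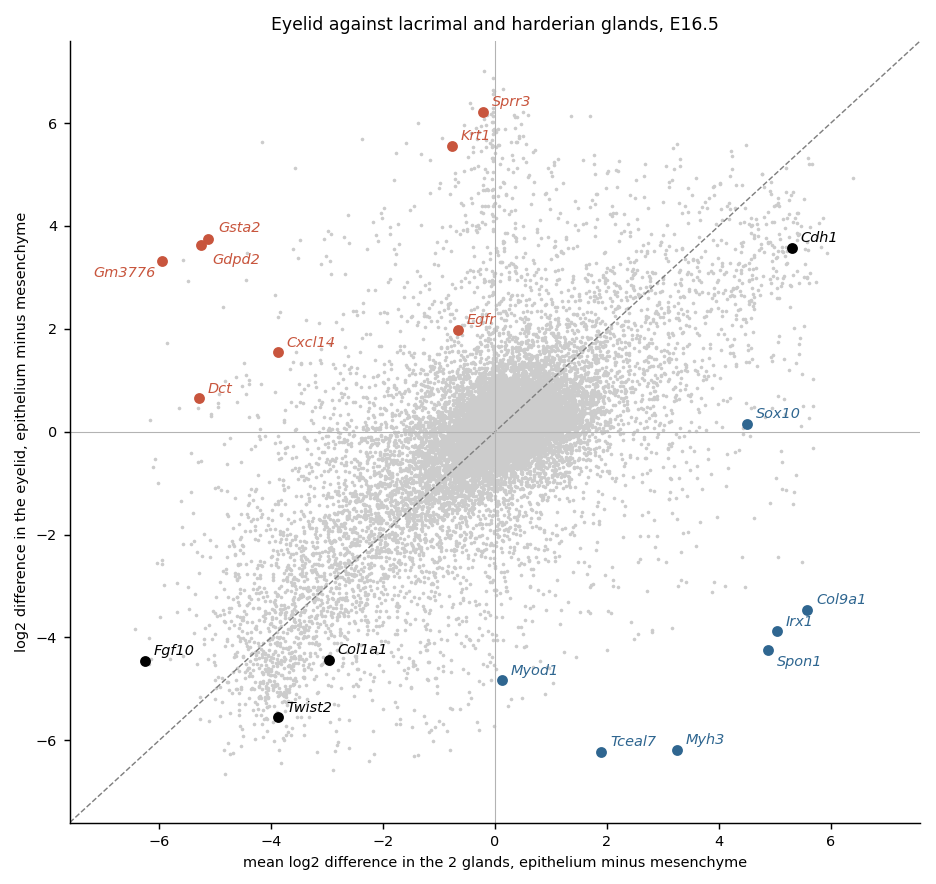
Log2 difference (epithelium minus mesenchyme) in the eyelid (vertical axis) against the mean of the lacrimal and harderian differences (horizontal axis), 1 point per gene, with the dashed line where both are equal. Gm3776, Gdpd2 and Gsta2 lie at upper left, Myh3, Spon1, Col9a1 and Irx1 at lower right, and Cdh1, Col1a1 and Twist2 share their direction in eyelid and glands.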

How the data were processed

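Total RNA was extracted with Trizol, amplified linearly, labelled with Cy3 and hybridised to 1-colour Agilent mouse arrays, per the labels' protocols. The authors deposited scanner files with spot intensity on a linear scale, already corrected for background, and flags for spots well above background. Agilent Feature Extraction read slide 1 in version 11.0.1.1 and slides 2 and 3 in 11.5.1.1, per the file headers, while the submitters' processing notes give 11.5.1.1 for all. The deposited series matrix holds intensity that matched the mean processed signal on all 23 arrays (median log2 ratio 0). Each embryonic group had its replicates 1, 2 and 3 on slides 1, 2 and 3.

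Outlier spots were left out, spots of a probe were averaged, and the value was log2 intensity minus the array's 75th percentile. Of 55681 probes 27509 matched a RefSeq symbol (GRCm38.p6), for 20887 genes, and 28172 were not used. Probes entered if, in at least 1 of the 8 groups, a share of 0.5 or more of their spots passed the background flag on each array, and the brightest probe stood for its gene, which left 16324. On the eyelid arrays the 75th percentile was 405.6 to 582.4 intensity units for epithelium and 407.8 to 625.6 for mesenchyme, with 55.9 to 58.7 and 55.8 to 60.1 percent of spots well above background, which sets the precision for dim genes. No spot was saturated.

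All 23 arrays and 8 groups entered 1 limma fit (version 3.58.1, R 4.3.3, data.table version 1.17.8), so that they share an estimate of the spread, with Benjamini-Hochberg adjustment at 0.05, two-sided. The fit was tried on simulated data with independent noise on each array and no slide effect, so that trial does not cover arrays that vary together. Deviations from the group means correlated at 0.342, 0.389 and 0.389 between eyelid arrays of the same number, so the numbers, which are also the slides, pair the arrays. The main fit, which gave the p-values and errors above, used the group alone, since no label says that the numbers mark a shared animal. The replicate block was tried as an alternative. Lower bounds set the mean of the bright group against the dimmest signal well above background, or the dim probe's own where that was higher. Named genes were up to 12 with the highest and 12 with the lowest difference (called, bright and without overlap), up to 4 called members of each of 47 lists, 5 and 5 for the eyelid against the glands, and a set of regulators of lid development. A few genes that this rule names are not reported here. The members, assigned by title, and the lists were chosen with earlier results of these data known. The planned normexp alternative used median in place of mean spot signals, since the scanner files held the median and not the mean. Alternatives were other samples, background correction, scaling, filters, probe rules, the authors' deposited matrix, an intensity trend and each eyelid array left out. Motifs were searched on both strands of RefSeq promoter windows with Python 3.11.15 and pandas 2.3.3, leaving out windows of 1 chromosome. Figures used matplotlib 3.10.9.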

Additional observations from a re-analysis of the deposited data

Results flagged for a closer look

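The genes below were among those whose difference between epithelium and mesenchyme in the eyelid departed most from the mean difference in the lacrimal and harderian glands, by limma's test of the difference itself in the fit of all arrays. Gm3776, Gm10639 and Gsta2, related glutathione transferase genes whose signals are uncertain as separate measurements because the sequences are alike, stood 9.27, 8.91 and 8.87 above the glands, and Gdpd2, a phosphodiesterase, 8.89 (adjusted p = 1.6e-07). Gdpd2 had 4.37, 4.33 and 3.93 in eyelid epithelium, against 0.62, 0.43 and 0.66 in eyelid mesenchyme, and its eyelid difference of 3.64 stood against -5.16 in the lacrimal and -5.34 in the harderian gland. In these 4 genes the eyelid difference was above 0 and both gland differences were below 0.

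Myh3, the embryonic myosin, stood at -9.43, with -6.19 in the eyelid, against 5.76 in the lacrimal and 0.73 in the harderian gland. Spon1, a matrix protein, stood at -9.13, with -4.24 in the eyelid, against 5.43 and 4.34 in the glands. Col9a1, a collagen of cartilage, stood at -9.04, Irx1, a homeobox gene, at -8.91 and Tceal7 at -8.12. Irx1 had 1.26, 1.29 and 0.56 in eyelid epithelium, against 5.11, 4.82 and 4.81 in eyelid mesenchyme. In these 5 genes the eyelid difference was below 0 and both gland differences were above 0. For Myh3 the harderian value of 0.73 was smaller than the standard error given above for its eyelid difference, so its direction in that gland is not settled.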

How the results depend on the processing

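With a paired fit, in which the replicate block was the slide, the counts were 4967 higher and 4671 lower with all arrays, 5146 and 4750 with the eyelid arrays alone, and 4206 and 4151 for the eyelid arrays without the block. Of 291 named genes, 270 called, the block with all arrays changed 1 call (Trp63, 0.46, gained). With the eyelid arrays alone 6 calls were gained (Dct, Etv5, Id1, Jun, Top2a and Trp63) and 2 lost (Elovl3 and Hbegf) with the block, and 2 were gained (Dct and Etv5) and 4 lost (Elovl3, Fos, Hbegf and Ptch1) without it. Array median scaling moved the eyelid count to 2539 higher and 3347 lower, and the count against the glands to 1758 higher and 2467 lower. All other settings (normexp, quantile normalization, filters, probe rules, deposited matrix, trend) kept these counts within 1.5 times. Normexp moved 13 of the 35 list medians over 0.5 in size by over 1.5 times, without a change of sign. Leaving out an eyelid array gave 3724 to 3828 higher and 3765 to 4026 lower. No called named gene changed sign under any setting. Of those not called, Eda and Sema3a did with the mean of probes, and 7 did when an array was left out. Array median scaling ended 5 calls (Axin2, Fasn, Fst, Hbegf and Pmel). Leaving out an array ended up to 9 calls of named genes, and it moved the log2 difference of 4 called genes by over 1.5 times, among them Fos (1.45 to 3.25) and Elovl3 (-3.03 to -0.89). Calls of Muc4 (2.50 to 3.20) ended without any single array. Genes at background in a layer have only a bound there, and 3 arrays a layer limit the precision of every difference.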

Other observations

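Of 31 measured factors that guide nerves and vessels 11 were higher and 12 lower in epithelium, against 25.7% and 25.5% of all genes. Epha1, an ephrin receptor of epidermis, was at 4.34, 3.29 and 4.46 in epithelium, against 0.36, 0.13 and 1.05 in mesenchyme. Slit3 and the receptors Nrp1 and Nrp2 were lower in epithelium (-4.01, -3.13 and -3.21).

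Smooth muscle and pericyte genes were lower in epithelium at 8 of 11, with 1 higher. Rgs5, a pericyte marker, was at -4.95, -3.96 and -3.81 in epithelium, against 0.56, 0.32 and 0.22 in mesenchyme, and Myh11, of contractile smooth muscle, was at least 5.58-fold lower in epithelium. Of 8 adipocyte genes 3 were lower and 1 higher. Fabp4, a lipid carrier of fat cells and capillaries, was at -1.04, -1.1 and -2.4 in epithelium and at 4.19, 2.89 and 2.71 in mesenchyme. Cebpa, shared by fat cells and keratinocytes, was at 2.75, 2.29 and 2.55 in epithelium and at 0.86, 0.48 and 0.78 in mesenchyme.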
